A study of Mus musculus with 6 samples.

Results

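Receptors for GABA and glycine, the proteins that assemble and anchor them, and the transporters that set the chloride gradient they work on were followed in postmitotic neurons of the mouse cortex at stage E14.5. The set was a list of 28 genes given by name, out of 34285 genes to which the estimated counts could be summed. It held 16 subunits of GABA-A receptors (5 alpha, 2 beta, 2 gamma, 3 rho and 4 of other classes), 2 of GABA-B receptors and 5 of glycine receptors. With these stood gephyrin (Gphn), Lhfpl4 and Clptm1, and the chloride transporters Slc12a2 and Slc12a5. The RNA came from cortices of embryos of 2 genotypes, Rp58+/+ (control) and Rp58-/- (mutant), with 3 libraries each. Rp58 is now named Zbtb18 and encodes a repressor of transcription with zinc fingers. The sources used here give neither the strain, nor how the allele was made, nor how the neurons were separated from the other cells of the cortex. The labels do not say whether libraries came from separate embryos, so p-values measure only the spread between these libraries, which may be technical.

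GABA-A receptors are chloride channels built of 5 subunits, usually 2 alpha, 2 beta and 1 of another class, and the alpha subunit sets much of their response to drugs and their place on the cell. Glycine receptors are chloride channels of the same superfamily, and in the embryonic cortex they contain mainly the alpha2 subunit, encoded by Glra2. GABA-B receptors are instead coupled to G proteins and need both of their subunits to reach the surface and signal. Whether a chloride channel depolarises or inhibits a neuron depends on the chloride gradient. The sodium-driven importer NKCC1 (Slc12a2) raises intracellular chloride, and the exporter KCC2 (Slc12a5), which appears as neurons mature, lowers it.

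Total estimated counts ran from 34645505 to 75892649 a library. The libraries were of 2 technical types, with both genotypes in each. In mutants 1 and 2 and control 1 the deposited effective length lay the same fixed number of bases under the transcript length (fixed-length type), while in mutant 3 and controls 2 and 3 it lay 133.7 to 139.2 bases under it (estimated-length type). Mitochondrial transcripts took 3.58 to 5.15% of the counts in the first type and 16.39 to 17.54% in the second, and the types were called different in 70.2% of all genes tested. The type was therefore a term in the main fit. The fit without it is given beside each named call, except for cell markers, where the markers still called without it are named. Zbtb18 stood at 1902, 1587 and 1697 CPM (counts scaled to library size) in controls 1 to 3, and at 46.67, 45.66 and 538 CPM in mutants 1 to 3 (log2 fold change -3.48 ± 0.81 SE, adjusted p = 0.0337, and 0.400 without the type term). Mutant 3 thus kept 32.8% of the mean level of the controls of its type, against 2.43% in the fixed-length type, and the sources used here do not say which exons the allele removes. Results are therefore also given without mutant 3. With the type term, that fit compares only control 1 with mutants 1 and 2, as no mutant of the estimated-length type is left. It is thus no separate check beside the fixed-length type alone. Leaving out control 1 likewise compares only mutant 3 with controls 2 and 3. Markers of glutamatergic cortical neurons, the labelled kind of cell, summed to 3429 to 4267 CPM in controls and to 2455 to 3255 CPM in mutants. Of these 8 markers 4 were called lower (Neurod6, Tbr1, Slc17a7 and Bcl11a), Slc17a6 was called higher (2.30-fold, adjusted p = 0.00751) and 3 were not called. Over all genes tested, 7.01% were called lower and 7.92% higher. Without the type term none of the 8 markers was called.

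On a per-length scale, the deposited TPM, the same gene led the list in each library. Gabbr1, the ligand-binding subunit of GABA-B receptors, took 40.4 to 48.2% of the summed TPM of the 28 genes. Lhfpl4 and Clptm1 followed in 3 libraries, and Clptm1 was next after Gabbr1 in the other 3. Below them the order differed by genotype. Glra2 was at position 4, 3 and 3 in controls 1 to 3 and at position 8, 9 and 9 in mutants 1 to 3. Gabra2, an alpha subunit of GABA-A receptors, was at position 7, 9 and 7 in controls and at position 4, 4 and 3 in mutants. These positions compare genes inside 1 library at a time.

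**Figure D1:**
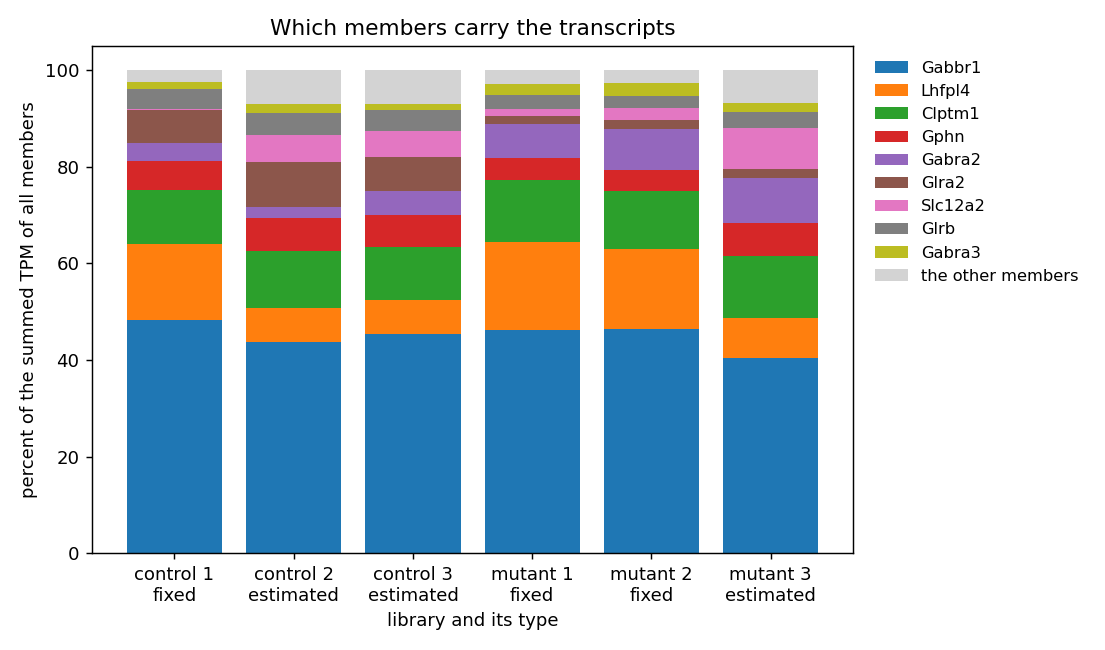
Stacked bars give, for each library, the percent of the summed TPM of all 28 genes taken by the genes with the highest levels, with the others in grey. Gabbr1 is the widest band in each of the 6 libraries, the Glra2 band is wider in the 3 controls than in the 3 mutants, and the Gabra2 band is wider in the mutants.

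Of the 28 genes, 23 had enough counts to be tested, and 8 of them (34.8%) were called at an adjusted p under 0.05. The call rate over all 16985 genes tested was 14.9%. Gabra2, Gabrg1 and Gabrg3 were called higher in mutants, against 7.92% of all genes, and Gabrb2, Gabrd, Glra2, Glrb and Gphn were called lower, against 7.01%. The median log2 fold change of the 23 genes was 0.10, and that of all genes was close to 0. Without the type term 2 of the 23 were called, against 2.36% of all genes. These were Gabrg1, higher (1.59% of all genes), and Glra2, lower (0.765%). Inside the fixed-length type alone, 3 were called, against 9.46% of all genes. Gabrg1 and Slc12a2 were higher there (6.05% of all genes) and Glra2 was lower (3.41%). Inside the estimated-length type alone, Gabrg1 was called higher and Glra2 lower, and the rates over all genes were 7.92% in all, 4.60% higher and 3.32% lower. By CPM, 10 of the 23 did not overlap between genotypes, against 15.4% of all genes. The mutant libraries lay above all controls for 4 genes (8.80% of all genes) and below them for 6 (6.64%). Library type was itself called for 13 of the 23 (56.5%), against 70.2% of all genes. Since 1 genotype has a single library inside each type, its spread there is taken from all 6 libraries.

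**Figure D2:**
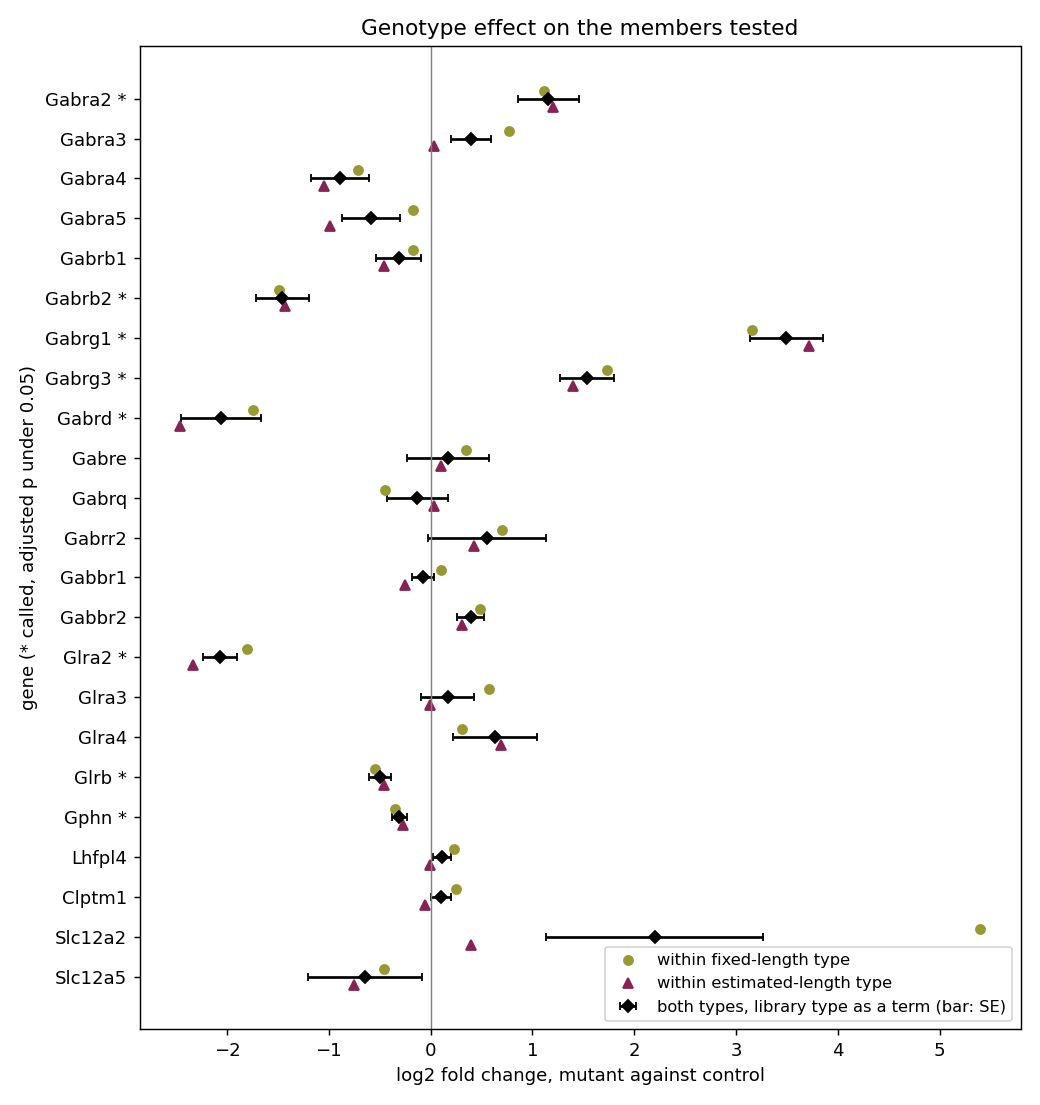
Log2 fold changes of mutant against control for the 23 genes tested, with diamonds for the fit with library type as a term (bars, SE), circles for the fixed-length type alone and triangles for the estimated-length type alone; stars mark called genes. Gabrg1 at 3.49 and Glra2 at -2.07 lie on the same side of 0 in both types, and Slc12a2 is the gene whose circle (5.40) and triangle (0.40) lie farthest apart.

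Receptor subunit genes often lie side by side, as clusters left by old duplications. By the gene order of the RefSeq table, Gabrg1 and Gabra2 are neighbours on chromosome 5, with no coding gene between them, and both were called higher. Gabra4 and Gabrb1 follow on the same chromosome, with 1 coding gene between Gabra2 and Gabra4. Neither was called, and their log2 fold changes were negative (-0.89 and -0.31). On chromosome 7 Gabrg3, called higher, lies next to Gabra5, not called. On chromosome 11 Gabrb2, called lower, lies next to Gabra6, which had too few counts to test. Gabrr2 and Gabrr1 are neighbours on chromosome 4, the former not called and the latter not tested. Gabre, Gabra3 and Gabrq lie close together on the X chromosome, and none of them was called. Promoter windows of 250 bases upstream of the start site were available for 25 of the 28 genes (RefSeq, GRCm38.p6, 30 windows), and the authors' notes name the mm9 build, so the windows are read as sequence only. They are shown for the neighbours that were both called higher, for Glra2, the gene called lower with the smallest p, and for Gabra5 as a contrast that holds the motif searched. The windows were searched on both strands for CATCTG, the core of the site that RP58 is known to bind, and for the longer ACATCTG that contains it. All 4 genes are read from the minus strand, and each sequence runs 5′ to 3′ in the direction of the gene. Capitals mark a match, which here is CAGATG, the same motif read on the other strand. The windows are chr5:71095850-71096099 for Gabra2, chr5:70842618-70842867 for Gabrg1, chrX:165327394-165327643 for Glra2 and chr7:57510060-57510309 for Gabra5.
Gabra2: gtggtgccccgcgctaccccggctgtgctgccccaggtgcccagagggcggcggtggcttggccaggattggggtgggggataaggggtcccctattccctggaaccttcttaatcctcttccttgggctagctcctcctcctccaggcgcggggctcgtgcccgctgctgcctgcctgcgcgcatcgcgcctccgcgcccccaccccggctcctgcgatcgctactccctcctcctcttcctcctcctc
Gabrg1: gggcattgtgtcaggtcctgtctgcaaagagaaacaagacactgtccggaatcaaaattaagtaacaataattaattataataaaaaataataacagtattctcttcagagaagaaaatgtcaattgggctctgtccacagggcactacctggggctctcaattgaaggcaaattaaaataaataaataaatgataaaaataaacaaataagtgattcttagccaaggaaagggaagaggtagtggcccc
Glra2: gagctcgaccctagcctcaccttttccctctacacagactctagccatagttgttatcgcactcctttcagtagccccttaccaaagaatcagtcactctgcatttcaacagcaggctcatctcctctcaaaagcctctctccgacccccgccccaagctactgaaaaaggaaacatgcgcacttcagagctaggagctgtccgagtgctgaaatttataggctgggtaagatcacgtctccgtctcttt
Gabra5: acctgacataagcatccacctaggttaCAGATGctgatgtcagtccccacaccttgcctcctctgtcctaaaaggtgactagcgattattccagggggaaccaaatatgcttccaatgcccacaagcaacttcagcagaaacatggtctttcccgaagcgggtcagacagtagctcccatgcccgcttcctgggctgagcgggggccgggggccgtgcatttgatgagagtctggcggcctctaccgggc

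The neighbouring windows differed in base composition. That of Gabra2 was 70.0% G and C with 18 CpG sites, and that of Gabrg1 was 35.6% with 1. The Glra2 window lay between them at 50.4% with 8 CpG sites. The median over the 30 windows was 57.4%, and over all 32851 windows of the table it was 52.4%. CATCTG occurred in the windows of 2 of the 25 genes, Gabrr1 and Gabra5, and in 14.4% of all windows. ACATCTG occurred in the window of 1 of them, Gabrr1, and in 3.71% of all windows. No match was present in the windows of the 7 called genes that had one, which says only that these letters are not in these 250 bases.

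Among the alpha subunits, Gabra2 was called higher in mutants and the others tested were not called. Gabra2 encodes the alpha subunit that is prominent in the embryonic forebrain. It stood at 19.08, 8.47 and 19.52 CPM in controls 1 to 3 and at 37.93, 44.73 and 31.94 CPM in mutants 1 to 3. Each mutant library lay above each control. The estimated change was 2.23-fold (log2 fold change 1.16 ± 0.30, adjusted p = 0.0464, and 0.218 without the type term). The call was lost without control 1 and without any 1 of the mutants, and without mutant 3 the log2 fold change was 1.11 with an adjusted p of 0.220. Only 1 of the 6 models that the annotation lists for the gene was among the transcripts joined here, and it is annotated as a target of nonsense-mediated decay. All its counts therefore had to fall on that model, which does not show which models were expressed. Gabra3, whose subunit is also typical of immature neurons, stood at 11.57, 9.01 and 7.68 CPM in controls and at 19.59, 19.92 and 8.53 CPM in mutants. Its groups overlapped, with the high values in mutants 1 and 2 (log2 fold change 0.40 ± 0.20, adjusted p = 0.233). Gabra4 and Gabra5, found mostly at extrasynaptic sites, had log2 fold changes of -0.89 ± 0.28 (adjusted p = 0.0877) and -0.59 ± 0.28 (adjusted p = 0.224). For both, the mutant libraries lay below all controls in CPM.

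The make-up of the alpha pool can be read on the per-length scale. Of the summed TPM of the 5 listed alpha genes, Gabra2 made up 64.5, 42.2 and 67.3% in controls 1 to 3 and 70.8, 73.2 and 79.6% in mutants 1 to 3. Gabra4 made up 5.17, 13.3 and 6.15% in controls and 2.07, 1.20 and 2.66% in mutants. The share of Gabra5 was 4.60, 9.96 and 8.28% in controls and 2.41, 1.83 and 2.71% in mutants. In each of these 3 cases the genotypes did not overlap. The share of Gabra3 did overlap, at 25.8, 34.6 and 18.1% in controls and 24.7, 23.8 and 14.7% in mutants. As parts of the same sum, the shares are not separate results, since a higher share of Gabra2 lowers the others. These shares cover only the alpha genes listed here.

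Of the beta subunits, which form the GABA binding site together with alpha, Gabrb2 was called lower. It stood at 1.15, 11.25 and 9.61 CPM in controls 1 to 3 and at 0.510, 0.270 and 3.85 CPM in mutants 1 to 3. Over all libraries the groups overlapped, because control 1 lay below mutant 3, but inside each library type every mutant lay below every control. The log2 fold change was -1.46 ± 0.26 (adjusted p = 0.0132, and 0.832 without the type term). The call was lost without control 1, control 2 or mutant 3, and without mutant 3 it was -1.49 (adjusted p = 0.0837). Gabrb1 was not called (log2 fold change -0.31 ± 0.22, adjusted p = 0.403).

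Both gamma subunits of the list were called higher, and Gabrg1 had the largest fold change of the 23 genes tested. The gamma subunit places the receptor at synapses and forms the benzodiazepine site with alpha, and gamma1 is found in few regions of the adult brain. Gabrg1 was near the limit of detection in controls, at 0.193, 0.116 and 0.258 CPM (6, 8 and 11 counts), and stood at 2.31, 1.73 and 2.87 CPM in mutants 1 to 3 (120, 93 and 142 counts). The lowest mutant library lay well above the highest control. The log2 fold change was 3.49 ± 0.36, or 11.3-fold (adjusted p = 0.00120, and 0.0305 without the type term), and it was 3.16 without mutant 3 (adjusted p = 0.0309). This call held in each of the 6 fits with the type term that left out 1 library. Gabrg3 stood at 0.402, 0.918 and 1.17 CPM in controls and at 1.26, 1.67 and 2.80 CPM in mutants. Every mutant lay above every control, though mutant 1 and control 3 were close. Its change was 2.90-fold (log2 fold change 1.54 ± 0.26, adjusted p = 0.0107, and 0.673 without the type term). The call was lost without control 1, control 2 or mutant 3, and without mutant 3 the log2 fold change was 1.74 (adjusted p = 0.0665).

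Subunits of the other classes were scarce. Gabrd, the delta subunit of extrasynaptic receptors, was called lower on a total of 67 counts. It stood at 0.350, 0.491 and 0.308 CPM in controls 1 to 3 and at 0.0772, 0.0748 and 0.0405 CPM in mutants 1 to 3, without overlap. The log2 fold change was -2.06 ± 0.39 (adjusted p = 0.0162, and 0.287 without the type term). It was called in only 1 of the 6 fits that left out 1 library, the one without mutant 2, and without mutant 3 it was -1.74 (adjusted p = 0.103). Gabre (epsilon) and Gabrq (theta) were not called. Of the rho subunits, which form receptors of their own in the retina, Gabrr2 could be tested and was not called (75 counts in all).

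**Figure D3:**
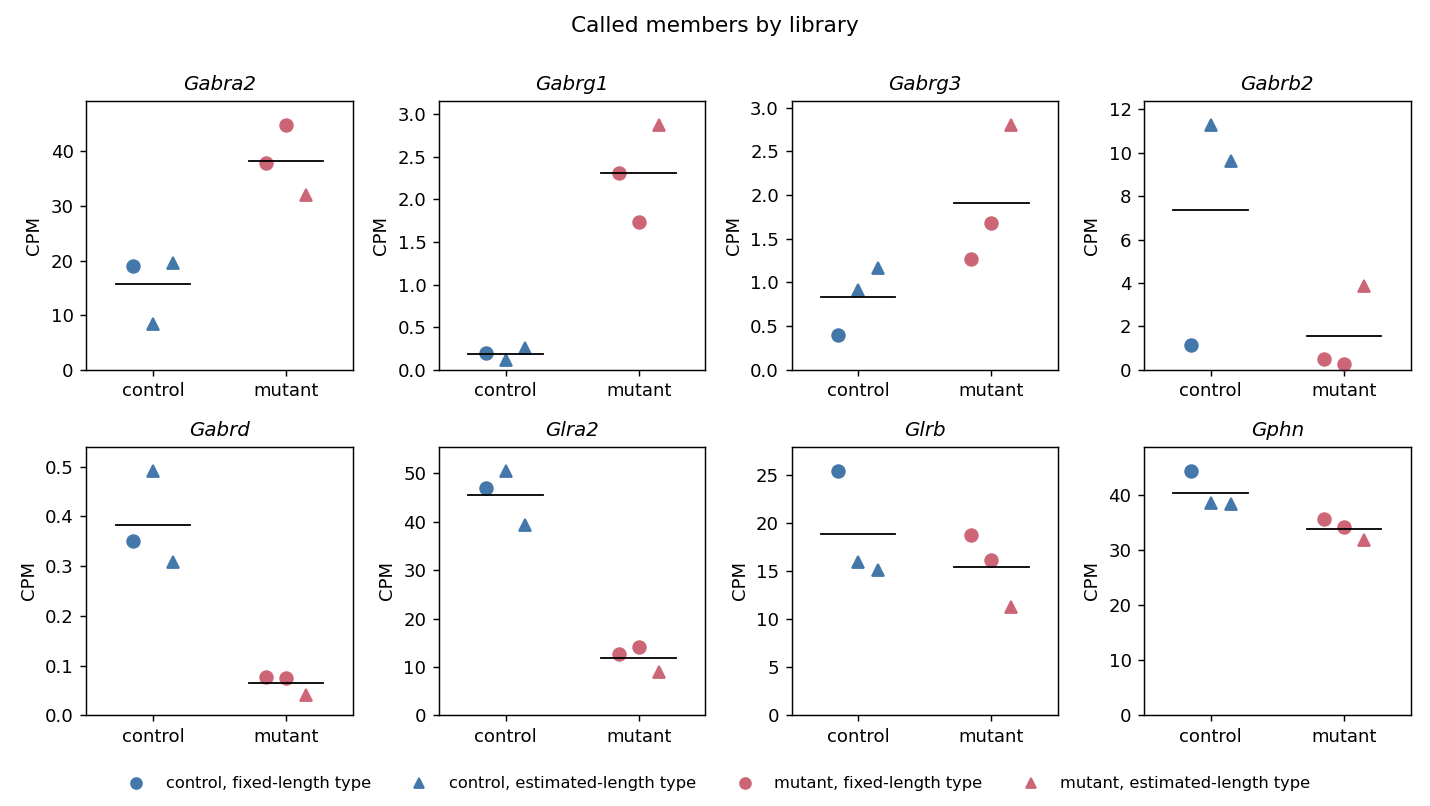
Each panel shows 1 of the 8 called genes in CPM, with 1 point a library, colour for genotype, circles or triangles for library type, and a line at the mean of each genotype. The mutant points lie above all control points for Gabra2, Gabrg1 and Gabrg3 and below them for Gabrd, Glra2 and Gphn, and the groups overlap for Gabrb2 and Glrb.

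Neither GABA-B subunit was called. Gabbr1 stood at 355, 213.2 and 219.9 CPM in controls 1 to 3 and at 382.6, 378.5 and 182.4 CPM in mutants 1 to 3. The libraries of the fixed-length type, control 1 among them, held the high values in both genotypes. Its log2 fold change was -0.07 ± 0.10 (adjusted p = 0.697). Gabbr2, which carries the signal to the G protein, stood at 14.97, 14.55 and 18.28 CPM in controls and at 22.33, 19.51 and 20.32 CPM in mutants. The mutants lay above all controls, but the change of 1.31-fold was not called (log2 fold change 0.39 ± 0.13, adjusted p = 0.102). Both subunits are needed in 1 receptor, and per length Gabbr1 exceeded Gabbr2 by 24.1 to 42.0 times in controls and by 16.9 to 32.7 times in mutants, which overlap. Of the Gabbr1 models, Gabbr1-203 took 70.1 to 78.3% of the gene's counts in the fixed-length type and 38.7 to 52.0% in the estimated-length type, so the split between its models went with library type.

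Of the glycine receptor genes, Glra2 and Glrb were called lower. Glra2 stood at 46.99, 50.49 and 39.42 CPM in controls 1 to 3 and at 12.71, 14.12 and 8.86 CPM in mutants 1 to 3. The highest mutant library lay far below the lowest control. The level was 4.19-fold lower (log2 fold change -2.07 ± 0.17, adjusted p = 0.000451, and 0.0163 without the type term). Without mutant 3 the log2 fold change was -1.81 (adjusted p = 0.00363), and the call held in each of the 6 fits with the type term that left out 1 library. Glrb, the beta subunit that binds gephyrin, stood at 25.43, 15.94 and 15.13 CPM in controls and at 18.72, 16.19 and 11.32 CPM in mutants. Its groups overlapped over all libraries. With the type term it was called lower by a smaller amount (log2 fold change -0.50 ± 0.11, adjusted p = 0.0262, and 0.997 without the term). That call was lost without any 1 of the controls and without mutant 3 (-0.54, adjusted p = 0.1001). The main coding model of the gene, Glrb-201, was not called among single transcripts with the type term (log2 fold change -0.36 ± 0.17, adjusted p = 0.509). Glrb-204, annotated as a target of nonsense-mediated decay, took 20.65, 2.76 and 2.59% of Glrb counts in controls 1 to 3. In mutants 1 to 3 it took 2.55, 3.49e-05 and 11.98%. Per length, Glra2 exceeded Glrb in controls, with ratios of 1.65, 2.08 and 1.70, and was below it in mutants, with ratios of 0.622, 0.762 and 0.573. Glra3 and Glra4, further alpha subunits, were not called and had 419 and 78 counts in all.

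Of the anchoring and assembly genes, Gphn was called lower by a small amount. Gephyrin forms the lattice under inhibitory synapses that holds glycine and GABA-A receptors. Gphn stood at 44.29, 38.56 and 38.31 CPM in controls 1 to 3 and at 35.53, 34.17 and 31.81 CPM in mutants 1 to 3. The groups did not overlap, with control 3 and mutant 1 close to each other. It was 1.24-fold lower (log2 fold change -0.31 ± 0.07, adjusted p = 0.0354, and 0.862 without the type term). The call held in only 1 of the 6 fits that left out 1 library, and without mutant 3 the adjusted p was 0.111. Lhfpl4, which brings GABA-A receptors to neuroligin 2 at synapses, stood at 169.5, 57.77 and 57.9 CPM in controls and at 208.9, 188.3 and 57.63 CPM in mutants. Clptm1, which holds GABA-A receptors back inside the cell, stood at 102.3, 82.93 and 79.93 CPM in controls and at 127.9, 116 and 78.56 CPM in mutants. For both, the 3 libraries of the fixed-length type were the highest, and neither was called (adjusted p = 0.474 and 0.556).

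The chloride importer gene Slc12a2 gave the least even values of the list. It stood at 0.703, 63.34 and 61.66 CPM in controls 1 to 3 and at 24.12, 38.32 and 82.39 CPM in mutants 1 to 3. Control 1, with 22 counts, lay far below the other 5 libraries, which held 1250 to 4255 counts. Over all libraries it was not called (log2 fold change 2.20 ± 1.06, adjusted p = 0.224). In the fixed-length type, where control 1 is the only control, the log2 fold change was 5.40 (adjusted p = 0.00141). In the estimated-length type it was 0.40 (adjusted p = 0.469). The difference of these effects, -5.00 ± 0.49, was itself called (adjusted p = 0.0422), as it was for 0.153% of all genes and for no other of the 23. Without control 1 the log2 fold change was 0.42 (adjusted p = 0.482), and without mutant 3 it was 5.40 (adjusted p = 0.00180). All counts of the gene fell on 1 transcript model, the single one that was listed.

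The exporter gene Slc12a5 was scarce. It stood at 0.223, 1.12 and 2.03 CPM in controls 1 to 3 and at 0.0386, 0.263 and 0.918 CPM in mutants 1 to 3. The mutants overlapped the controls and the gene was not called (log2 fold change -0.65 ± 0.56, adjusted p = 0.499). Its protein-coding model Slc12a5-201 had counts only in controls 2 and 3, where it took 39.2 and 45.8% of the gene's counts. A retained-intron model, Slc12a5-205, took the largest share in 5 of the 6 libraries. Mutant 1 had 2 counts in all, which fell on Slc12a5-203, a model of 422 bases. The log2 ratio of Slc12a5 to Slc12a2, per length, was -0.47, -4.31 and -3.44 in controls and -4.11, -4.96 and -5.33 in mutants, so the importer had the higher TPM in each library. The mutant mean lay lower by 2.06 on the log2 scale, and the exact two-sided permutation test gave p = 0.2, where the smallest value that 3 against 3 libraries allow is 0.1. The ratio of mutant 1 rests on its 2 counts of a short model, which gave a TPM of 0.301. By TPM, mutant 1 lay above control 2, while by CPM the ratio was lower in every mutant than in every control. The overlap thus depends on the scale. Without control 1 the difference of the means was -0.93.

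**Figure D4:**
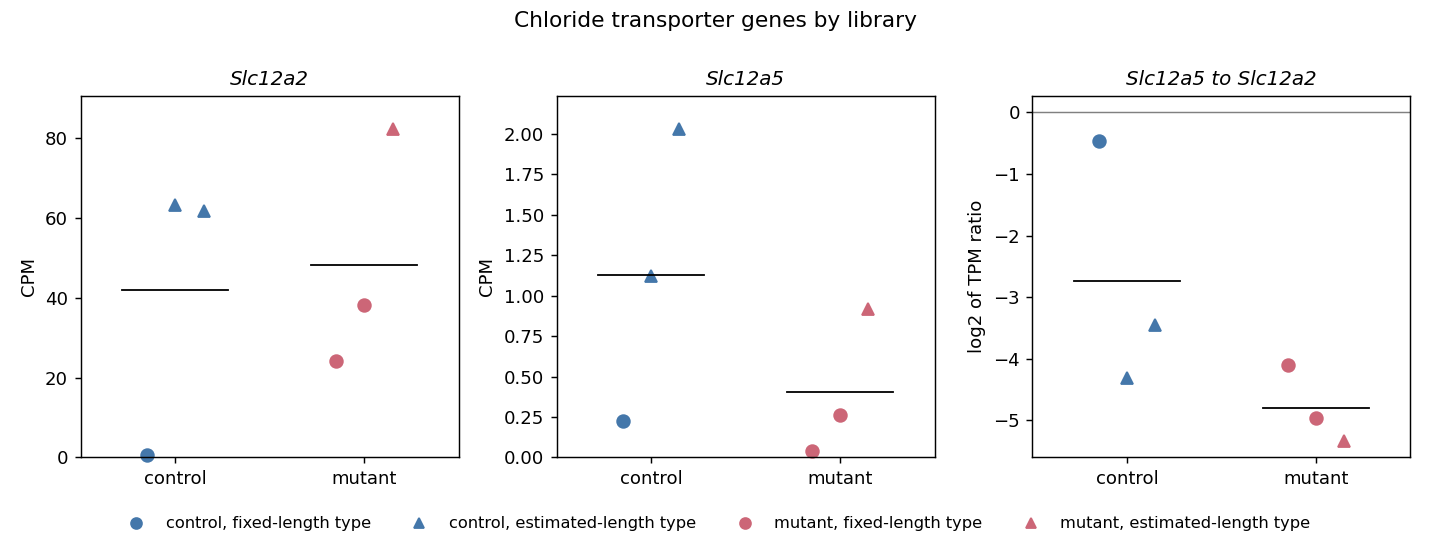
The left and middle panels show Slc12a2 and Slc12a5 in CPM, and the right panel the log2 ratio of their TPM, with 1 point a library, colour for genotype, circles or triangles for library type, and a line at the mean of each genotype. Control 1 stands apart at 0.703 CPM for Slc12a2 and at -0.47 for the ratio, and the ratio is below 0 in each of the 6 libraries.

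The rest of the list was at low levels. Besides the genes given by library, 8 tested genes that were not called (Gabra4, Gabra5, Gabrb1, Gabre, Gabrq, Gabrr2, Glra3 and Glra4) stood at 4.72 CPM or less in each library. Gabra6, Gabrp, Gabrr1, Gabrr3 and Glra1 were not tested, with 0 to 10 counts each over all 6 libraries and none for Gabrr1. Gabra6 belongs to cerebellar granule cells and Glra1 to the adult spinal cord and brainstem. At the level of single transcripts, 69 models of the 28 genes were listed and 37 were tested. Gabrg1-201 was called higher (log2 fold change 3.48 ± 0.47, adjusted p = 0.0402) and Glra2-201 lower (-2.03 ± 0.19, adjusted p = 0.0167), and both are the only listed model of their gene. Without the type term neither was called (adjusted p = 0.272 and 0.312). Over all 42824 transcripts tested 1.74% were called, 1.11% higher and 0.637% lower.

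Other genes of inhibitory signalling were taken in 5 lists with 74 genes, of which 68 were tested, 14 called higher and 6 lower. This is 29.4%, against 14.9% of all genes. Without the type term 5 were called higher and 1 lower. In the list for GABA synthesis, uptake and breakdown, 3 of 7 tested were called higher and none lower. Slc6a11, which encodes GAT-3, a GABA transporter found in the adult mainly in astrocytes, stood at 0.509, 0.387 and 0.355 CPM in controls 1 to 3 and at 147.6, 119.5 and 60.19 CPM in mutants 1 to 3. Its change was 177-fold (adjusted p = 8.33e-06, and 0.00301 without the type term). Slc32a1, the vesicular transporter for GABA and glycine, was near the limit of detection in both genotypes, at 0.0318, 0 and 0.0474 CPM in controls and at 0.595, 0.318 and 0.506 CPM in mutants (adjusted p = 0.0137, and 0.282 without the type term; lost without control 1, mutant 1 or mutant 3). None of the 8 glycine handling genes was called. The most abundant per length, Shmt2, a mitochondrial enzyme that makes glycine from serine, stood at 73.35, 48.59 and 42.38 CPM in controls and at 96.11, 96.11 and 44.58 CPM in mutants (adjusted p = 0.365).

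The list for the inhibitory postsynaptic scaffold and receptor trafficking had 8 called higher and 1 lower of 22 tested. Insyn1, a protein of the gephyrin complex, stood at 19.3, 23.45 and 23.38 CPM in controls 1 to 3 and at 91.34, 87.33 and 79.79 CPM in mutants 1 to 3, a change of 3.95-fold (adjusted p = 0.000126, and 0.00561 without the type term). Hap1, which links GABA-A receptors to kinesin motors, rose 3.23-fold (adjusted p = 0.00186, and 0.0265 without the term). Shisa7, an auxiliary subunit of GABA-A receptors, was called higher with the type term (2.25-fold, adjusted p = 0.00491) and was not called without it (adjusted p = 0.389). Its groups overlapped, since control 1 at 40.67 CPM lay above mutant 3 at 31.19 CPM. Of 19 tested genes for chloride and cation cotransport and its kinases, Slc12a4, a potassium chloride cotransporter, was called lower (log2 fold change -0.90 ± 0.17, adjusted p = 0.0146, and 0.803 without the type term) and the other 18 were not called. Its groups overlapped, with mutant 2 at 7.53 CPM and control 3 at 7.50 CPM, and the call held in 2 of 6 fits that left out 1 library.

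The list of GABA-B receptor partners and effectors had 3 called higher and 4 lower of 12 tested, while the receptor genes themselves were not called. Kctd8, an auxiliary subunit that binds Gabbr2, stood at 7.50, 16.72 and 17.74 CPM in controls 1 to 3 and at 1.04, 0.991 and 1.70 CPM in mutants 1 to 3. The log2 fold change was -3.07 ± 0.18 (adjusted p = 0.000126, and 0.0218 without the type term). Kctd16, another auxiliary subunit of the same family, was called higher (log2 fold change 2.69 ± 0.35, adjusted p = 0.00335, and 0.670 without the type term). Its values were 0.0954, 0.298 and 0.592 CPM in controls and 0.618, 0.524 and 3.52 CPM in mutants, and the call was lost without mutant 3. Ajap1, a partner of the extracellular part of Gabbr1, stood at 2.04, 3.50 and 2.65 CPM in controls and at 16.64, 17.38 and 15.75 CPM in mutants (6.33-fold, adjusted p = 0.000520, and 0.00921 without the type term). For Kctd8 and Ajap1 the genotypes did not overlap.

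**Figure D5:**
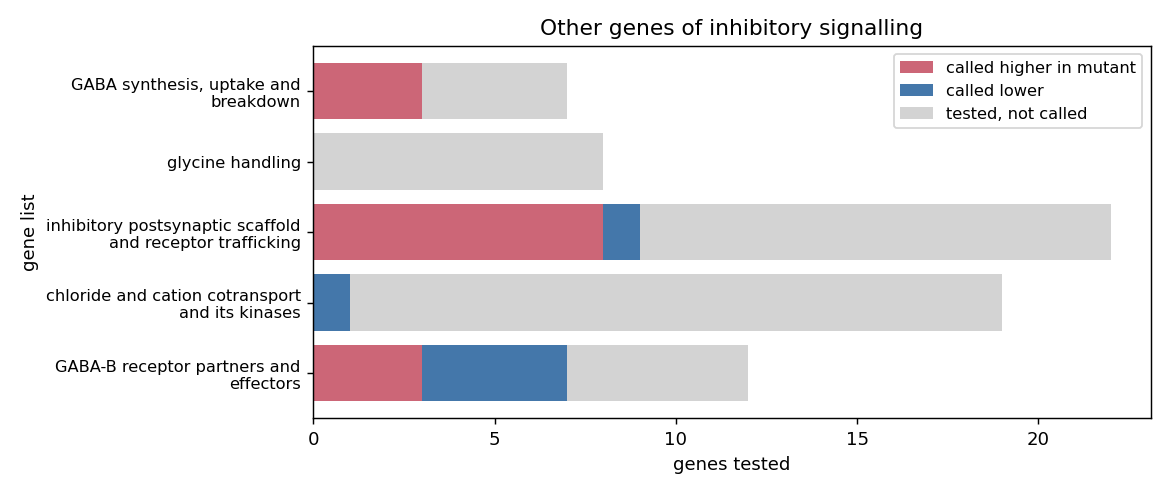
Horizontal bars give, for each of the 5 lists of other genes of inhibitory signalling, the number of genes tested, split into called higher in mutants, called lower and not called. The scaffold and trafficking list has 8 higher and 1 lower of 22, the GABA-B partner list 3 higher and 4 lower of 12, and the glycine handling list none called of 8.

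Markers of other cells of the cortex also differed between the libraries. The calls below are from the fit with the type term. Without it, the markers still called were Hes1, Sox2, Pax6, Gja1 and Calb2, higher, and Slc1a3, lower. Each count of called markers stands against 14.9% called over all genes tested, 7.92% higher and 7.01% lower. Of 11 tested markers of radial glia and progenitors, 6 were called higher and 3 lower. Their summed level was 129.1 to 293 CPM in controls and 190.5 to 400.2 CPM in mutants. Of 5 tested astrocyte markers, 2 were called higher, with summed levels of 2.81 to 62.5 CPM in controls and 80.22 to 102.7 CPM in mutants. Most of that difference was Gja1, at 0.758 to 2.07 CPM in controls and at 57.2 to 96.38 CPM in mutants. Slc1a2, the other abundant gene of that list, was not called and was high in the 3 libraries of the estimated-length type. Of 11 tested interneuron markers, 3 were called higher, with summed levels of 1.90 to 8.47 CPM in controls and 5.37 to 12.06 CPM in mutants. Gad1, which defines interneurons, was at or under 0.338 CPM in each library and was not tested. Of 7 tested Cajal-Retzius markers, Calb2 (4.005-fold, adjusted p = 0.00488) and Ebf3 (2.38-fold, adjusted p = 0.00163) were called higher, with summed levels of 216.3 to 748.7 CPM in controls and 274.7 to 741.8 CPM in mutants. Most of each sum was Reln, which was not called (adjusted p = 0.357) and went with library type. Reln stood at 178.5 to 276 CPM in the fixed-length type and at 566.6 to 698.8 CPM in the estimated-length type. Both tested markers of the oligodendrocyte lineage, Pdgfra and Cspg4, were called higher, at 2.53 CPM or less in each library, and the defining marker Sox10 was at 0 in all 6. Of 5 tested endothelial and mural markers, Kdr and Cspg4 were called higher, at 1.58 CPM or less. No marker of microglia, erythroid cells, or choroid plexus and meninges was called. The part of these cells in the higher levels of Gabra2, Gabrg1, Gabrg3 and Slc6a11 was not tested. In libraries made from many cells, fewer cells of a type and less RNA per cell cannot be told apart.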

How the data were processed

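RNA was sequenced from 3 control and 3 mutant libraries, with a stranded total RNA kit per the labels. FastQC, kallisto and mm9 stand in the submitters' processing notes, without versions. Per the file headers, the authors deposited for each of 97251 transcripts its length and effective length in bases, an estimated count and a TPM value. Estimated counts were deposited without normalization. TPM values are the authors' scaling of those counts by effective length and total.

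By GENCODE vM21, used for names, 84632 transcripts (87.0%) were joined to 34285 genes. The rest took 6.85 to 8.58% of a library's counts and was left out. Sums were rounded to whole numbers. Genotypes were compared with edgeR 4.0.16 in R 4.3.3 (TMM, filterByExpr, quasi-likelihood test, prior count of 2), with library type as a term and Benjamini-Hochberg adjustment over 16985 genes, called at 0.05. The common biological coefficient of variation was 0.186 with the term and 0.701 without. Standard errors are the absolute log2 fold change over the square root of F. The procedure was tested on simulated data.

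Values by library are given for called genes and for the 6 others with the highest mean TPM. From each further list up to 3 called genes with the smallest p are named, or the one with the highest TPM, and some genes the rule takes are not reported here. Slc12a5 and the low genes were described beyond that rule. The genes and lists were chosen with earlier results of these data known. Alternatives were no type term, RLE size factors, no low-count filter, DESeq2 1.42.0, limma 3.58.1 on log2(TPM + 0.1), coding genes alone, each type alone and each library left out. Shared reads are divided between similar models by kallisto, so counts of single models and of Gabra4 and Gabrb1, whose 5′ ends overlap, are uncertain.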

Additional observations from a re-analysis of the deposited data

Results flagged for a closer look

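The genotype effect on Slc12a2 differed between the library types by a test of the difference itself. The effect in the estimated-length type minus that in the fixed-length type was -5.00 on the log2 scale (edgeR, adjusted p = 0.0422). It rests on control 1, the only control of the fixed-length type, in which the gene had 22 counts, and whether the sample or the making of that library set that value was not tested.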

How the results depend on the processing

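No paired analysis was possible because the numbers in the library titles are all different; the numbers 1 to 3 used here follow the order of deposition and pair nothing. Of the 8 called genes, Gabrg1 and Glra2 were called in both fits and in both types. Without the type term 1 gene was called higher, 1 lower, 6 genes of the 5 further lists and 0 transcripts (2 with it). On log2 TPM with limma, 3 were called higher, 3 lower and 12 in the lists. In the fixed-length type alone, 2 were higher, 1 lower and 8 in the lists; in the estimated-length type alone, 1, 1 and 10. With 1 library left out, with or without the type term, 0 to 3 were higher, 0 to 5 lower, 1 to 25 in the lists and 0 to 1 among transcripts. The log2 ratio of Slc12a5 to Slc12a2 differed by -2.84 to -0.93 with 1 library left out. Over all genes, 2537 were called with the term, 400 without it, 1336 by limma, 4029 by DESeq2 and 84 to 3034 with 1 library left out.

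Called genes kept their sign with 1 exception: Glrb ran from -0.54 to 0.0092 with 1 library left out, positive without control 1 and without the type term. Genes not called changed sign as follows. Without the type term Gabre was -0.64, Gabbr1 0.26, Glra3 -0.79 and Glra4 -0.19. In the fixed-length type Gabbr1 was 0.10. In the estimated-length type Gabrq was 0.035, Glra3 -0.0052, Lhfpl4 -0.0053 and Clptm1 -0.052. By limma Gabrr2 was -0.19 and Slc12a5 0.16. With 1 library left out, the ranges were -2.28 to 0.35 (Gabre), -2.44 to 0.054 (Gabrq), -0.23 to 0.56 (Gabbr1), -2.79 to 0.57 (Glra3), -2.62 to 0.71 (Glra4), -0.031 to 0.47 (Clptm1) and -0.42 to 5.40 (Slc12a2). The cause was not tested. Slc12a2, higher, was called with no filter (adjusted p = 0.0192) and with DESeq2 (0.0482), and Gabra4, lower, likewise (0.0445 and 0.0229).

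Counts limit Gabrd (67 in all), Gabrr2, Glra4 and the Gabrg1 controls. DESeq2 gave no adjusted p for Gabrd. A change that was not called is not shown to be absent.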
